A study of Mus musculus with 16 samples.

Results

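The genes described here carry a cell through G2 phase and mitosis: cyclins and activators of the cyclin-dependent kinase CDK1, mitotic kinases, the spindle checkpoint, the chromosome passenger complex, centromere proteins, motors, cytokinesis factors, and the machinery that ends mitosis. The list has 44 genes, chosen by the gene name printed for each probe on the array, and 74 probes carry such a name. Of the 44, 41 passed the filter on dim probes and were tested among 16668 genes. The other 3, Ttk, Hmmr and Anln, were well above background in at most 2 of the 24 channels and are described apart.

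The RNA came from mouse liver and was read on 2-colour arrays, each array setting one genotype against another, with every pair of samples repeated with the dyes exchanged. Atg7, an enzyme that autophagosome formation requires, was removed in Atg7F/F:Mx1-Cre mice (Atg7 cKO); Nrf2, a transcription factor of the antioxidant response encoded by Nfe2l2, was absent in Nrf2-/- mice (Nrf2 KO); the double knockout (double KO) was Atg7F/F:Mx1-Cre:Nrf2-/-. Mx1-Cre is switched on by interferon, which injected pIpC elicits, and it acts in hepatocytes and in blood and immune cells alike, so the Atg7 deletion is not restricted to hepatocytes. Animals of the Atg7 genotypes and controls received pIpC at 8 weeks of age, and livers were taken 4 weeks later, although the growth protocol speaks of 4 weeks of treatment. Whether Nrf2 KO mice were among the injected animals is not stated. The controls are labelled only as wild type, and the labels do not say whether an experiment used 1 animal or a pool. A pair of arrays with exchanged dyes was averaged to 1 experiment, which gave 2 experiments for each of 4 comparisons: 1 and 4 for Nrf2 KO over wild type, 2 and 5 for Atg7 cKO over wild type, 3 and 6 for double KO over wild type, and 7 and 8 for double KO hybridised directly against Atg7 cKO.

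Before the results, the arrays differ in ways the genotypes do not explain. In experiments 1 to 3 the Y-linked Ddx3y and Eif2s3y were well above background in both channels of every array and Xist in none; in experiments 4 to 6 it was the reverse. On the direct arrays, where only ratios were used, Xist was listed at exactly 0 in experiment 7 and at a log2 ratio of 0.48 in experiment 8, and Ddx3y at 0.12 in experiment 7 and 0 in experiment 8. Each comparison with wild type thus holds 1 experiment of either kind, and the kind of experiments 7 and 8 is read from these ratios alone. Both values are given for many genes, and a mean or a bound for the others. Of the targeted genes, Nfe2l2 had log2 ratios of -3.04 and -3.88 on a pair of probes in Nrf2 KO and of -3.04 and -3.71 in double KO, while the other Nfe2l2 probe lay at -0.06 and 0.06. One Atg7 probe lay at -0.80 in Atg7 cKO and -0.73 in double KO, and the other at -0.08 and -0.03; where these probes lie relative to the deleted parts was not determined. The 10 hepatocyte markers (such as Alb, Cps1 and Apob) were all tested, and their summed processed signal in the wild-type channels lay between 680000 and 801000.

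Entry into mitosis depends on CDK1 bound to cyclin A or B. Polo-like and Aurora kinases then build the spindle, the checkpoint holds the cell until every chromosome is attached, and the anaphase-promoting complex with its activator Cdc20 destroys cyclin B and securin so that chromosomes part. Most of these genes are silent in resting cells, and hepatocytes of an adult liver rarely divide. Their transcripts rise together late in the cycle because their promoters share a few elements: the cell cycle genes homology region (CHR), bound by the MuvB complex within the repressive DREAM or the activating B-Myb and FoxM1 assemblies, and CCAAT boxes, bound by NF-Y.

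RefSeq promoters (build GRCm38.p6, 250 bases before to 50 bases after the annotated start) were matched by symbol for 36 of the 44 genes, with 38 promoters in all. The CHR spelled TTTGAA, counted on either strand, stood in 71.1% of the 38 member promoters and in 17.9% of all 32851 promoters; the spelling TTCGAA stood in 10.5% against 1.56%. A CCAAT box on either strand was found in 76.3% of member promoters and 37.4% of all. A CHR of either spelling together with a CCAAT box occurred in 68.4% against 7.52%. Only these motifs were searched, a match is a string of letters and not a measured binding site, and promoters of 8 members (Aurkb, Ccna2, Cdc25c, Foxm1, Incenp, Kif20a, Pbk and Tpx2) were not matched. The 120 bases before the start of 6 genes are shown 5′ to 3′ because they carry these elements close to the start in genes that the arrays then separated; capitals mark a CHR (TTTGAA, or TTCAAA where it lies on the opposite strand, or TTCGAA) or a CCAAT box (CCAAT, or ATTGG on the opposite strand).
Cdc20 (chr4:118437344-118437463, minus strand): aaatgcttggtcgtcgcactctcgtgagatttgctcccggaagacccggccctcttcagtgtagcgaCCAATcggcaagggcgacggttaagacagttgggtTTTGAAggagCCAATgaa
Ube2c (chr2:164769809-164769928, plus strand): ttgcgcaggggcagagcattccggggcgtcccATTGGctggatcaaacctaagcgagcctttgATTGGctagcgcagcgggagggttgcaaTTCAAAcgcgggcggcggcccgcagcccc
Top2a (chr11:99024190-99024309, minus strand): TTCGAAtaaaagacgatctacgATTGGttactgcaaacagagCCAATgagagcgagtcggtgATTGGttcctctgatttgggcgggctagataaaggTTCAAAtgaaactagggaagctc
Kif11 (chr19:37376262-37376381, plus strand): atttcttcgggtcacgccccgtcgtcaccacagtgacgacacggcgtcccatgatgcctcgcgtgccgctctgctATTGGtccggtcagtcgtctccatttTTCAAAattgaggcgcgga
Ccnb2 (chr9:70421555-70421674, minus strand): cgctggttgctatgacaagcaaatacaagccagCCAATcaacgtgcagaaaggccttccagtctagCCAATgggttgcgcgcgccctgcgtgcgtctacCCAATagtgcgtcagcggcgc
Ccnf (chr17:24251410-24251529, minus strand): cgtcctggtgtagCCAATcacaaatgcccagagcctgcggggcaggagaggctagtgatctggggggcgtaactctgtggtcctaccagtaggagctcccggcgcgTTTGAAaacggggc

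Counting the first base of a match from the start, the Cdc20 CHR lies at -18 between CCAAT boxes at -53 and -8. Within the stretches shown, Kif11 has the CHR at -19 and a CCAAT box at -45. Ube2c has them at -29 and at -57 and -88, and Top2a has the nearest CHR at -23 with CCAAT boxes at -58, -78 and -98. The Ccnb2 stretch has CCAAT boxes at -87, -54 and -21, evenly spaced, and its CHRs lie outside the stretch, at -167 and past the start at 5. Ccnf carries the same letters, with a CHR at -14 and a CCAAT box at -107 in the stretch, and a further CHR at -130 and CCAAT box at -147 before it. Other members hold the CHR just past the start, among them Plk1 at 31, Aurka at 33, Cenpf at 3 and Racgap1 at 6. Neither motif was found in the windows of Plk4, Melk, Mad2l1, Birc5, Nusap1 and Pttg1.

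Detection set how much each gene could show. Well above background is the scanner software's own flag, and it was met in 55.7% of the wild-type channels of the 41 genes, in 57.9% of the Nrf2 KO channels, in 97.0% of the Atg7 cKO channels and in 95.1% of the double KO channels. In the 12 wild-type channels, 15 of the 41 genes were above background every time, 14 in some, and 12 never: Ccnb1, Plk4, Aurkb, Pbk, Bub1b, Spag5, Kif11, Kif23, Kif2c, Tpx2, Nusap1 and Top2a. Those 12 passed the filter only through knockout channels, and so had to differ. Cdc25c and Foxm1 were above background in 1 wild-type channel and Melk, Cenpf and Racgap1 in 2, short of the 4 channels needed. They too passed only with the help of knockout channels. Counts that include any of these genes are a description. For the 12 never seen in wild type, a fold against wild type is a lower bound, written as at least so many-fold. It is the knockout mean over the higher of the dim probe's signal and the lowest signal above background. Log2 ratios given for them by experiment are ratios of corrected signals over a wild-type signal not above background, and show no more than the bound.

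**Figure D1:**
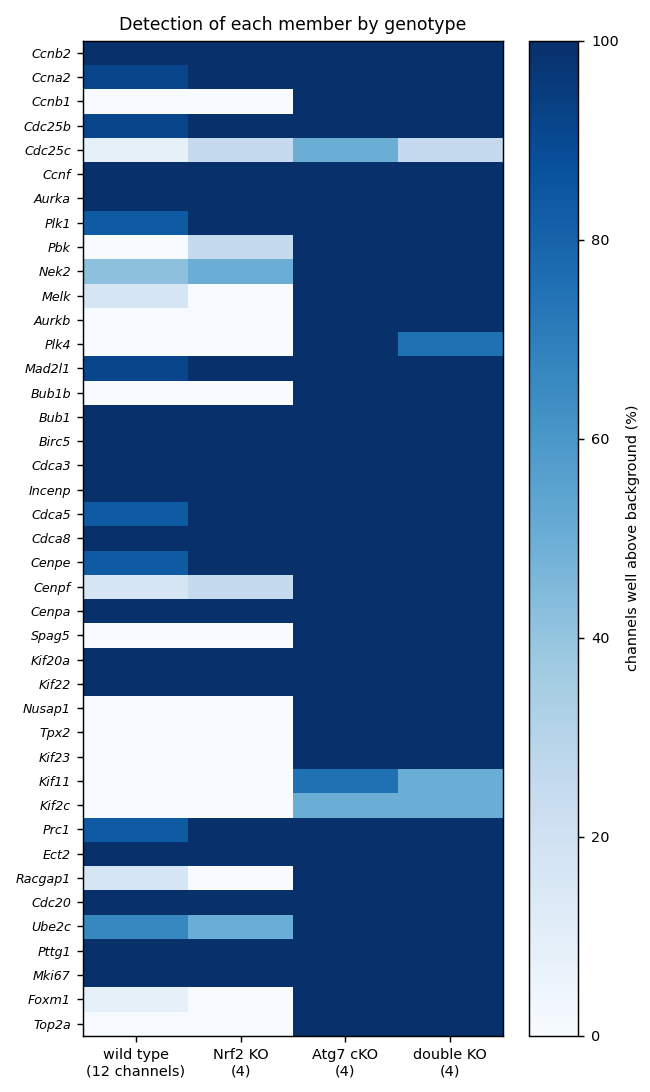
Heat map of the share of channels (%) in which each tested member was well above background, with 12 wild-type channels and 4 channels of each knockout; rows are genes grouped by role. The 12 rows of genes never seen in wild type are white under wild type and shaded under Atg7 cKO and double KO. The shade is full except for Kif2c and Kif11 in both genotypes and Plk4 in double KO. The Nrf2 KO column looks like the wild-type column.

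In Atg7 cKO liver the genes rose almost as a body. Of the 41 tested, 36 were higher than wild type at a limma adjusted p under 0.05 and 1 was lower, where 23.2% of all genes tested were higher and 16.2% lower. Over the 15 genes that every wild-type channel measured, 12 were higher, against 24.9% of the 12340 genes measured as fully. Their median log2 ratio was 1.73, with a range from -0.28 to 2.73. These 15 passed the filter without help from the knockouts, though the list itself was chosen with earlier results of these data known. The median over all 41 was 1.05 beside 0 for all genes. In bulk liver, more cells in mitosis and more RNA per dividing cell cannot be told apart. Without any filter on dim probes 36 of the 44 were higher, and leaving out experiments in turn left 31 to 36 higher.

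The size of the rise depended on the experiment and on the scale. The median of the 41 genes was 0.68 in experiment 2 and 1.38 in experiment 5, and 39 of the 41 stood higher in experiment 5. Past a 2-fold rise lay 16 members in experiment 2, where 3.42% of genes did, and 27 in experiment 5, where 5.13% did. Ratios near background are pulled towards 0 by the offset of 50 that the background correction adds. On the software's processed signals, which have no such offset, the median over the 41 was 2.81 in Atg7 cKO and 2.53 in double KO; both medians include the 12 genes for which only a bound holds. Over the 24 members that passed a filter of 12 channels, the medians on the main scale were 1.65 and 1.19.

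**Figure D2:**
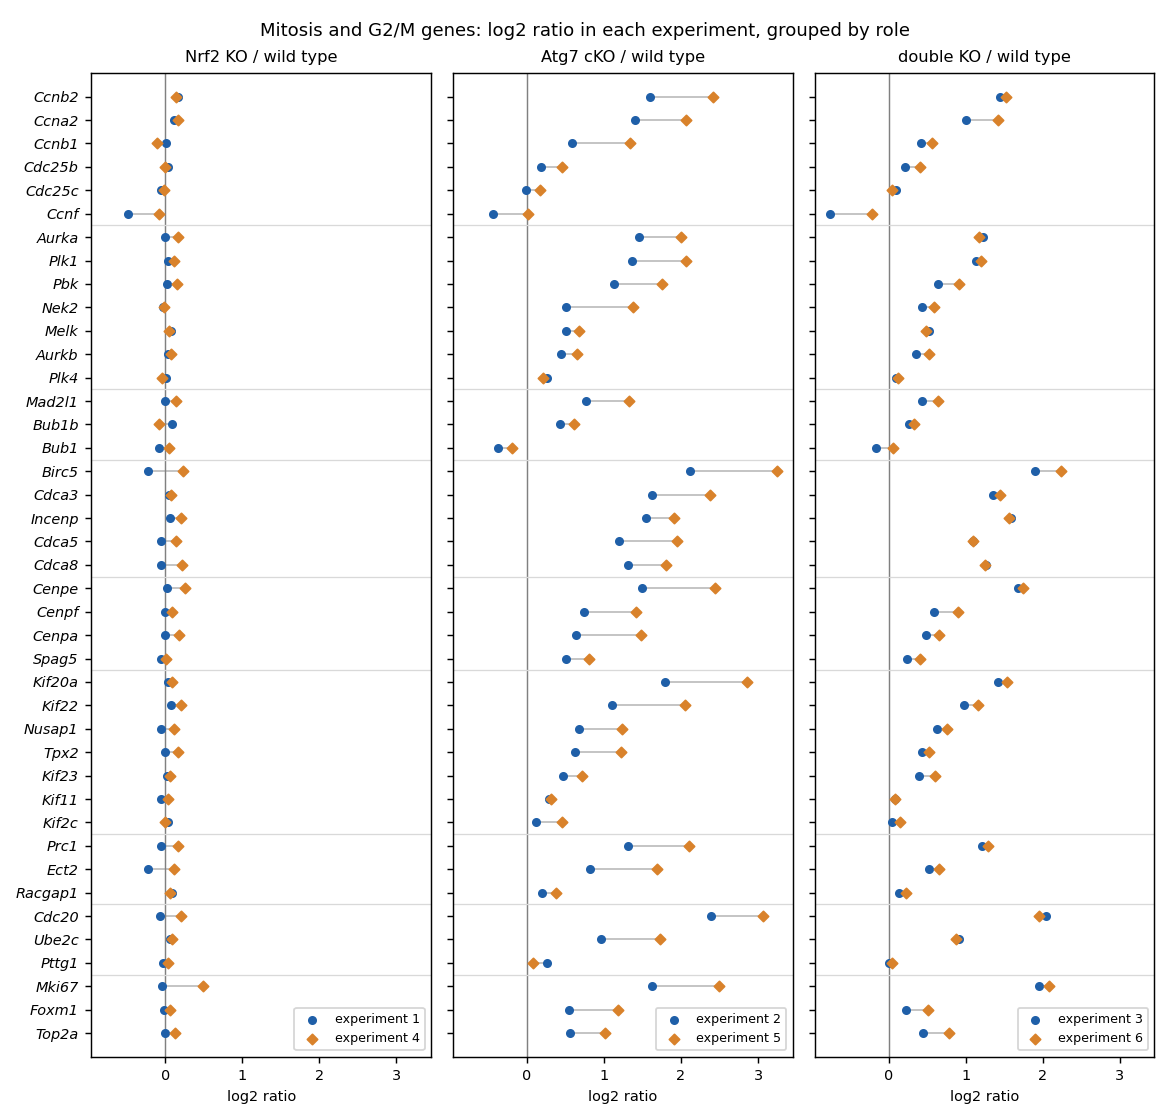
Log2 ratio of each tested member (rows, grouped by role) in each of the 2 experiments of Nrf2 KO, Atg7 cKO and double KO over wild type; circles are experiments 1, 2 and 3, diamonds 4, 5 and 6, and a line joins the pair. Nrf2 KO values lie around 0, Atg7 cKO values reach 3.25, with the diamond to the right in 39 of 41 rows, and the double KO pairs lie close together.

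The counts by role that follow are to be read against all genes, of which 23.2% were higher in Atg7 cKO and 21.2% in double KO. They include genes that passed the filter only with knockout channels. Among the cyclins and activators of CDK1, 4 of 6 rose in Atg7 cKO. Ccnb2, a B-type cyclin, had log2 ratios of 1.60 and 2.41 in experiments 2 and 5 and of 1.45 and 1.52 in the double KO experiments 3 and 6. Those are 4.01-fold in Atg7 cKO (adjusted p = 0.00172) and 2.80-fold in double KO (adjusted p = 0.00373), and every knockout value lay far above the 0.16 and 0.14 of Nrf2 KO. Ccna2, the cyclin of S phase and mitotic entry, read 1.40 and 2.06, then 1.01 and 1.42 in double KO (adjusted p = 0.00222 and 0.00587). Ccnb1, the main partner of CDK1, was never above background in wild type; it was at least 1.94-fold higher in Atg7 cKO (adjusted p = 0.0114), and the bound of 1.41-fold in double KO missed the threshold (adjusted p = 0.0831). The phosphatase Cdc25b, which activates CDK1, rose by little, 0.18 and 0.46 in Atg7 cKO (adjusted p = 0.0372) and 0.21 and 0.41 in double KO (adjusted p = 0.0411). The related Cdc25c did not pass, at -0.01 and 0.17 with only 5 of 24 channels above background. Ccnf, an F-box protein that carries a cyclin domain and was measured in every channel, stood apart from the cyclins: it read -0.44 and 0.01 in Atg7 cKO, -0.76 and -0.21 in double KO and -0.48 and -0.08 in Nrf2 KO, and passed in none.

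All 7 mitotic kinases rose in Atg7 cKO and 5 in double KO, but Plk4, Aurkb, Pbk and Melk passed the filter only with knockout channels. Aurka, which matures the centrosomes, was well above background in all 24 channels and read 1.46 and 2.0 in Atg7 cKO and 1.23 and 1.17 in double KO; that is 3.32-fold (adjusted p = 0.0012) and 2.30-fold (adjusted p = 0.00266), with no overlap between the genotypes. Plk1, which acts from mitotic entry to cytokinesis, read 1.37 and 2.07, then 1.14 and 1.20 in double KO. Both kinases stayed within 0.00 and 0.16 in Nrf2 KO. Pbk, a kinase found in dividing cells, was not well above background in any wild-type channel and was at least 2.70-fold higher in Atg7 cKO and at least 1.71-fold in double KO. Aurkb, the kinase of the passenger complex, was at least 1.45-fold and 1.35-fold higher. Melk read 0.51 and 0.68 in Atg7 cKO and 0.53 and 0.49 in double KO, a pair of ranges that overlap. Nek2, a kinase of centrosome separation, read 0.51 and 1.38 in Atg7 cKO (adjusted p = 0.0174) and 0.43 and 0.59 in double KO (adjusted p = 0.101). Plk4, the kinase that starts centriole duplication, was at least 1.17-fold higher in Atg7 cKO, and in double KO read 0.09 and 0.12 without passing (adjusted p = 0.13).

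The spindle checkpoint gave the one disagreement within a gene. Mad2l1 rose in both genotypes, at 0.77 and 1.33 in Atg7 cKO (adjusted p = 0.00451) and 0.43 and 0.64 in double KO (adjusted p = 0.0356), and Bub1b was at least 1.43-fold and 1.23-fold higher. Bub1, the checkpoint kinase, was the single member called lower in Atg7 cKO, at -0.37 and -0.19 on its brighter probe (adjusted p = 0.0437), with -0.17 and 0.06 in double KO. Its second probe, above background in 8 of 24 channels, had a mean of 0.56 ± 0.29 in Atg7 cKO and 0.40 ± 0.08 in double KO (SD, n = 2). The mean of both probes was 0.14 in Atg7 cKO and did not pass, and median centring in place of loess gave 0.11 for the brighter probe, so the data hold no settled direction for Bub1. Ttk, the kinase that starts checkpoint signalling, had 1 probe, above background in 2 channels, and read 0.06 and 0.1 in Atg7 cKO.

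The chromosome passenger complex and its partners rose as a whole, 5 of 5 in each of Atg7 cKO and double KO. Birc5 (survivin), which docks the complex at centromeres, read 2.12 and 3.25 in Atg7 cKO and 1.90 and 2.24 in double KO, against -0.22 and 0.23 in Nrf2 KO. This is 6.41-fold in Atg7 cKO (adjusted p = 0.00234) and 4.2-fold in double KO (adjusted p = 0.00475), the ranges of the genotypes overlapping between 2.12 and 2.24. Incenp, the scaffold, showed the smallest adjusted p of the list in both genotypes, with 1.54 and 1.91 in Atg7 cKO (0.000763) and 1.59 and 1.56 in double KO (0.000799); the double KO values lie inside the Atg7 cKO range. Cdca8 (borealin) read 1.31 and 1.80, then 1.26 and 1.25. The others of this group work beside the complex: Cdca3, a trigger of mitotic entry, read 1.63 and 2.38 and then 1.35 and 1.45, and Cdca5 (sororin), which protects sister cohesion, read 1.20 and 1.95 and then 1.09 and 1.1. For Cdca8, Cdca3 and Cdca5 both Atg7 cKO values lay above both double KO values, an order that 24.3% of all genes showed. The difference between the genotypes was called for none of them.

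At centromeres and kinetochores all 4 genes rose in Atg7 cKO and 3 in double KO. Cenpe, the kinetochore motor, read 1.5 and 2.44 in Atg7 cKO (adjusted p = 0.00268) and 1.68 and 1.74 in double KO (adjusted p = 0.00396), so the double KO values fell within the Atg7 cKO range. Cenpf read 0.74 and 1.42, then 0.59 and 0.90. Cenpa, the histone variant that marks the centromere, read 0.64 and 1.48 in Atg7 cKO (adjusted p = 0.0115) and 0.49 and 0.66 in double KO, which missed the threshold (adjusted p = 0.0718). Spag5, a spindle protein also bound to kinetochores, was at least 1.57-fold higher in Atg7 cKO and 1.25-fold in double KO.

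Of 7 tested motors and spindle factors, 6 rose in Atg7 cKO and 4 in double KO. Kif20a, the motor that carries the passenger complex to the midzone, read 1.79 and 2.86 in Atg7 cKO, 5.01-fold (adjusted p = 0.00228), and 1.42 and 1.54 in double KO, 2.79-fold (adjusted p = 0.00808); the gap between the genotypes, 1.54 to 1.79, was smaller than the gap between the Atg7 cKO experiments. Kif22, a chromosome-arm motor, read 1.11 and 2.05, then 0.98 and 1.16. Kif23, the motor of the central spindle, and the spindle assembly factors Tpx2 and Nusap1 were unseen in wild type and at least 1.5-fold, 1.88-fold and 1.92-fold higher in Atg7 cKO. In double KO the bounds were 1.41-fold for Kif23, 1.40-fold for Tpx2, which missed the threshold (adjusted p = 0.0505), and 1.62-fold for Nusap1. Kif11, the motor that separates the spindle poles, was at least 1.17-fold higher in Atg7 cKO and read 0.08 in both double KO experiments (adjusted p = 0.225). Kif2c, a microtubule depolymerase, was near background throughout and read 0.12 and 0.45 in Atg7 cKO (adjusted p = 0.0548). Hmmr, below the filter, read 0.12 and 0.35.

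Cytokinesis genes passed in Atg7 cKO, 3 of 3, more often than in double KO, 1 of 3; the difference itself was called for none of them. Prc1, which bundles the midzone microtubules, read 1.31 and 2.11 in Atg7 cKO (adjusted p = 0.00262) and 1.21 and 1.29 in double KO (adjusted p = 0.00629). Ect2, which activates RhoA at the cleavage furrow, read 0.82 and 1.69 in Atg7 cKO (adjusted p = 0.00849) and 0.53 and 0.65 in double KO (adjusted p = 0.0821). Its partner Racgap1 read 0.19 and 0.38, then 0.14 and 0.23. On the double KO arrays no wild-type channel was above background for Racgap1, so its rise there is a bound of at least 1.13-fold. Anln, below the filter, read 0.13 and 0.19 in Atg7 cKO.

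Of the 3 genes of mitotic exit, 2 rose in Atg7 cKO and 2 in double KO. Cdc20 had the highest mean log2 ratio in Atg7 cKO on the offset scale, on which dim genes give only bounds and cannot be ranked against it. Cdc20, whose probe lies at chr4:118105536-118105595 on the minus strand of build mm9, read 2.39 and 3.07 in Atg7 cKO, 2.04 and 1.95 in double KO and -0.07 and 0.21 in Nrf2 KO. The rise was 6.62-fold in Atg7 cKO (adjusted p = 0.000853) and 3.99-fold in double KO (adjusted p = 0.00136), and both Atg7 cKO values lay above both double KO values. Ube2c, the ubiquitin-conjugating enzyme of the anaphase-promoting complex, read 0.96 and 1.73, then 0.92 and 0.88, its CHR and paired CCAAT boxes being among the promoter letters shown above. Pttg1 (securin), a substrate of the complex, was bright in every channel and read 0.26 and 0.08 in Atg7 cKO (adjusted p = 0.072) and 0.00 and 0.05 in double KO.

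The proliferation marks and FoxM1 followed. Mki67, the Ki-67 antigen used in pathology to count cycling cells, read 1.62 and 2.49 in Atg7 cKO, 4.16-fold (adjusted p = 0.00274), and 1.95 and 2.08 in double KO, 4.05-fold (adjusted p = 0.00297). Its double KO values sit inside the Atg7 cKO range, so the genotypes overlap. Top2a, which untangles sister chromatids, was not above background in wild type and was at least 1.70-fold higher in Atg7 cKO and 1.54-fold in double KO. Foxm1, the transcription factor of G2/M promoters, read 0.55 and 1.18 in Atg7 cKO (adjusted p = 0.0112) and 0.22 and 0.51 in double KO (adjusted p = 0.131). No wild-type channel of the double KO arrays was above background for Foxm1, so its value there is a bound of at least 1.29-fold.

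With Nrf2 removed alone, none of the 41 genes passed the limma test, and 0.012% of all genes did. No member had an unadjusted p under 0.05 either. The mean log2 ratios ran from -0.28 (Ccnf) to 0.23 (Mki67) with a median of 0.05. The Mki67 mean came from -0.04 in experiment 1 and 0.49 in experiment 4, so its experiments disagreed more than the mean departs from 0.

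In double KO liver 27 of the 41 genes were higher than wild type and 0 lower, against 21.2% and 15.9% of all genes. Of the 15 measured in every wild-type channel 10 were higher, against 22.9% of the genes measured as fully, with a median log2 ratio of 1.26. The median over the 41 was 0.59; the experiments were close to each other, at 0.53 and 0.66, with 14 members past 2-fold in experiment 3 (4.58% of genes) and 15 in experiment 6 (4.26%). All 27 were also called higher in Atg7 cKO, which makes them 75% of the 36 Atg7 cKO calls and 100% of the double KO calls, each set against its own wild-type channels. Called in Atg7 cKO alone were Ccnb1, Cenpa, Ect2, Foxm1, Kif11, Nek2, Plk4, Racgap1 and Tpx2. The count rested on both experiments: 14 were higher without experiment 3 and 11 without experiment 6, and 11 of the 27 genes kept their call under every alternative in which they were tested (Aurka, Birc5, Ccnb2, Cdc20, Cdca3, Cdca8, Cenpe, Incenp, Melk, Mki67 and Plk1), Melk not being tested under the filter of 12 channels.

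**Figure D3:**
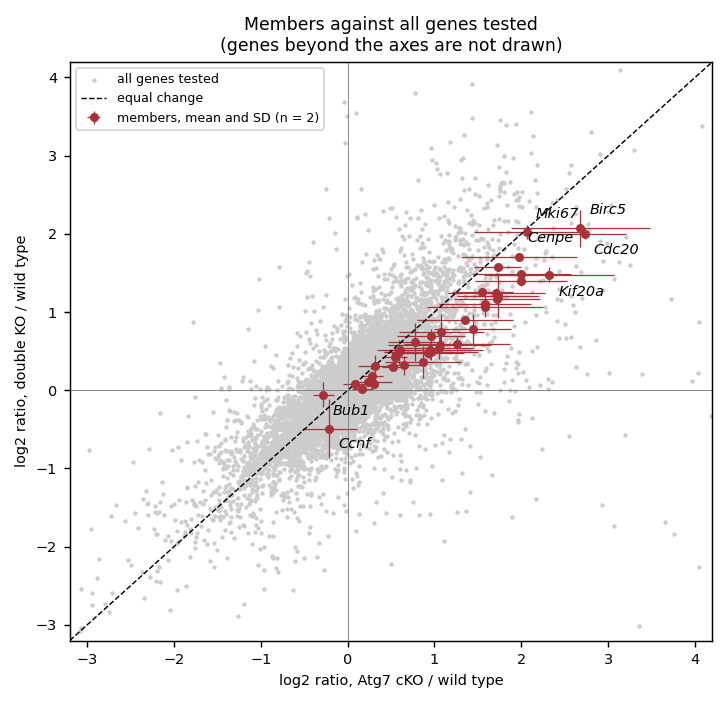
Mean log2 ratio in Atg7 cKO (x axis) and double KO (y axis) over wild type; red points are the 41 tested members with the SD of 2 experiments, grey points all genes tested, and the dashed line equal change. Of the members, 40 lie below the line, and Cdc20, Birc5, Kif20a and Mki67 lie farthest out.

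Whether the rise was smaller in the double KO was read in 2 ways. Through wild type, the difference double KO minus Atg7 cKO was below 0 for 40 of the 41 genes, the exception being Bub1, and its median was -0.33. None passed the limma test, where 4.96% of all genes did, and 6 had an unadjusted p under 0.05. The lowest adjusted p of a member was 0.143, for Kif11, whose wild-type signal was never above background. The counts over the 41 include genes that passed the filter only with knockout channels. Over the 15 genes that every wild-type channel measured, the median difference was -0.51, with 14 below 0 and none called. The median was 0.02 over the 12340 genes measured as fully. The largest difference, that of Kif20a, was -0.84 with a standard error of 0.339 (adjusted p = 0.235), and that of Cdc20 was -0.73 with a standard error of 0.237 (adjusted p = 0.162). Both Atg7 cKO experiments exceeded both double KO experiments for 21 of the 41, where 24.3% of genes showed that order. The interaction term, which asks whether the double KO departs from the sum of the single knockouts, passed for none of the 41 against 0.72% of all genes, with 4 members at an unadjusted p under 0.05. Pbk had the lowest adjusted p among them (0.312), at -0.75 with a standard error of 0.273, but it too was never above background in wild type. Over the 15 fully measured genes the median of the term was -0.61, with 13 below 0 and none called.

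On the direct arrays none of the 41 passed the limma test, against 14.8% of all genes, and 7 had an unadjusted p under 0.05. The median was -0.55, but it averages experiments that do not match. In experiment 7 the median was -0.05, 23 of 41 values were below 0, and no member lay past a 2-fold fall (6.98% of genes did). In experiment 8 the median was -1.06, 39 of 41 were below 0, and 23 lay past a 2-fold fall, against 5.03% of genes. Cdc20 read -0.32 and -1.65, Kif20a -0.14 and -1.85, Ccnb2 -0.12 and -1.44, and Plk1 -0.12 and -1.42. Mki67 changed sign between the experiments, at 0.52 and -0.63.

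The arrays against wild type showed the same split when set out by kind. On the deposited ratios, which the direct arrays share, experiment 3 minus experiment 2 had a median of -0.10 over the 41 genes with 28 below 0, and experiment 6 minus experiment 5 a median of -0.68 with 34 below 0. The shares of all genes below 0 were 49.2% and 46.0%. On the normexp and loess scale the medians were -0.15 with 34 of 41 below 0 (47.8% of all genes) and -0.64 with 40 of 41 below 0 (46.9%). By ratios alone, experiment 7 is grouped with 2 and 3, where Ddx3y was measured, and 8 with 5 and 6, where Xist was. The Ddx3y group (2, 3 and 7) gave a smaller median difference than the Xist group (5, 6 and 8) in both routes. On the normexp scale the smaller one also leaned below 0. The difference between these kinds of experiment rests on 1 experiment of each kind per route and was not tested; what else separated them (animal, day, slide) cannot be told apart. Leaving out experiment 2 gave 8 members lower in double KO than in Atg7 cKO (Ccnb1, Ccnb2, Cdca3, Kif20a, Kif22, Nek2, Plk1 and Ube2c), where 2.31% of all genes were called in either direction, and leaving out experiment 7 gave 2 on the direct arrays (Cdca3 and Plk1), where 1.84% were; without experiment 5 or 8 there were none, and the medians were -0.06 and -0.05. Fitting the single arrays with the experiment as a random block gave 6 of 41 members lower through wild type (Aurka, Cdc20, Cdca3, Kif20a, Mad2l1 and Pbk). On the direct arrays it gave 5 of 41 lower (Aurka, Ccnb2, Cdc20, Cdca3 and Kif20a). Of all genes 14.9% and 25.7% were called there in either direction. The share of all genes called lower was not computed for that fit, so the shares cannot be compared.

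**Figure D4:**
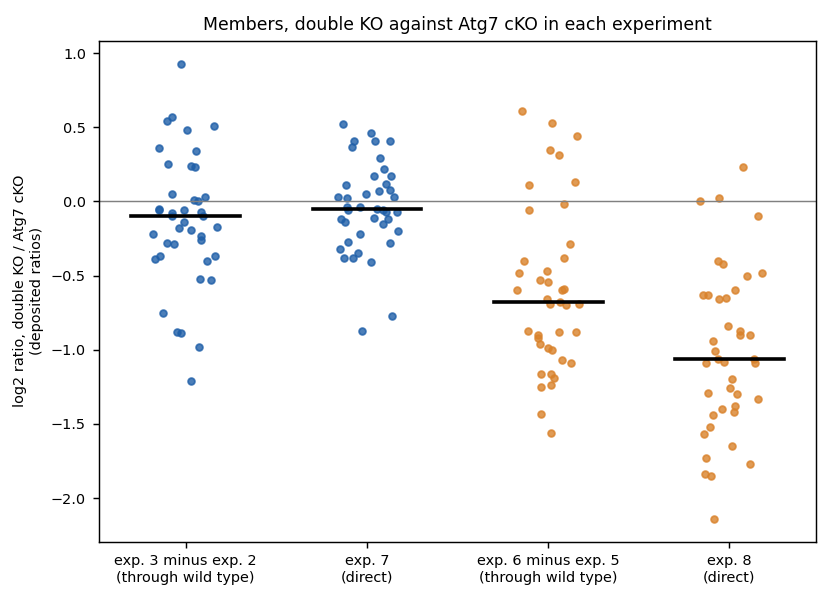
Log2 ratio of double KO over Atg7 cKO for the 41 tested members, as deposited, in 4 estimates: the difference of experiments 3 and 2, experiment 7, the difference of experiments 6 and 5, and experiment 8; bars are medians. The medians are -0.10 and -0.05 in the first pair (blue) and -0.68 and -1.06 in the second (orange).

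The calls were also counted by the promoter letters. They are to be read against all genes, of which 23.2% were higher in Atg7 cKO and 21.2% in double KO. The counts include genes that passed the filter only with knockout channels. Of the 22 tested members with both a CHR and a CCAAT box, 20 rose in Atg7 cKO and 16 in double KO, with medians of 1.17 and 0.69; the 2 that did not rise in Atg7 cKO were Ccnf and Bub1. Of the 6 with neither motif, 5 rose in Atg7 cKO and 4 in double KO, with medians of 0.78 and 0.52, Pttg1 being the exception in Atg7 cKO. Of the 3 with a CCAAT box alone, 3 rose in Atg7 cKO and 1 in double KO. Of the 2 with a CHR alone, 1 rose in Atg7 cKO and 1 in double KO. With so few genes outside the first class no difference between the classes was tested.

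Other genes of the cycle were read from lists that do not overlap with the members. Their counts are to be read against all genes. Of these 23.2% were higher and 16.2% lower in Atg7 cKO, and 21.2% higher and 15.9% lower in double KO. Among CDK1 and its regulators, 7 of 9 rose in Atg7 cKO and 6 in double KO: Cdk1 itself read 0.89 and 1.29, then 0.49 and 0.75, and its small subunit Cks1b 1.14 and 1.18, then 0.60 and 0.37. Of 21 further kinetochore and centromere genes 18 rose in Atg7 cKO and 9 in double KO, where 1 fell; the outer-kinetochore subunit Spc25 had mean log2 ratios of 1.30 and 0.63. Of 11 condensin and chromosome structure genes 10 rose and 1 fell in Atg7 cKO, and 8 rose and 1 fell in double KO, led by Hmgb2 (1.73 and 1.92) and the condensin subunit Ncapg (1.54 and 1.13). Of 17 further spindle and cytokinesis genes 14 rose in Atg7 cKO and 8 in double KO, and the microtubule destabiliser Stmn1 went furthest, at 2.77 and 2.12.

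The anaphase-promoting complex and the transcription factors of the cycle had medians near 0. In Atg7 cKO 35.7% of the complex and 31.8% of the factors rose, beside 23.2% of all genes. In double KO 7.14% and 27.3% did, beside 21.2%. Of 14 subunits of the anaphase-promoting complex 5 rose and 2 fell in Atg7 cKO, and 1 rose and 2 fell in double KO, with medians of 0.02 in each; Anapc4 had the largest change, 0.41 in Atg7 cKO. Of 22 DREAM, E2F and NF-Y factors 7 rose and 1 fell in Atg7 cKO and 6 rose in double KO. Those that rose include the activators E2f1 (0.60 and 0.26), E2f2 (0.73 and 0.77) and E2f3 (0.48 and 0.30).

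The earlier cycle moved with mitosis. Of 34 genes of G1 phase and DNA replication 30 rose in Atg7 cKO and 23 in double KO, where 1 fell, with medians of 0.94 and 0.60: the replicative helicase subunit Mcm6 read 2.41 and 3.16, then 1.83 and 2.27, and Ccnd1, the cyclin of G1, 2.34 and 1.5, then 2.04 and 1.69. Ccne1, the cyclin of the G1/S step, had means of 1.63 and 1.11. Of 7 CDK inhibitors 4 rose in Atg7 cKO, and 3 rose and 1 fell in double KO. Cdkn1a (p21), a brake on CDKs, read 0.72 and 1.40 in Atg7 cKO and 1.17 and 1.74 in double KO. Cdkn2b (p15) read 0.63 and 0.95 in Atg7 cKO but 0.01 and 0.10 in double KO (adjusted p = 0.00244 and 0.647). Cdkn3, a CDK phosphatase that itself peaks in mitosis, read 1.75 and 2.68, then 1.32 and 1.48. In Nrf2 KO 0 genes of these lists passed the limma test, and 3 had an unadjusted p under 0.05.

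**Figure D5:**
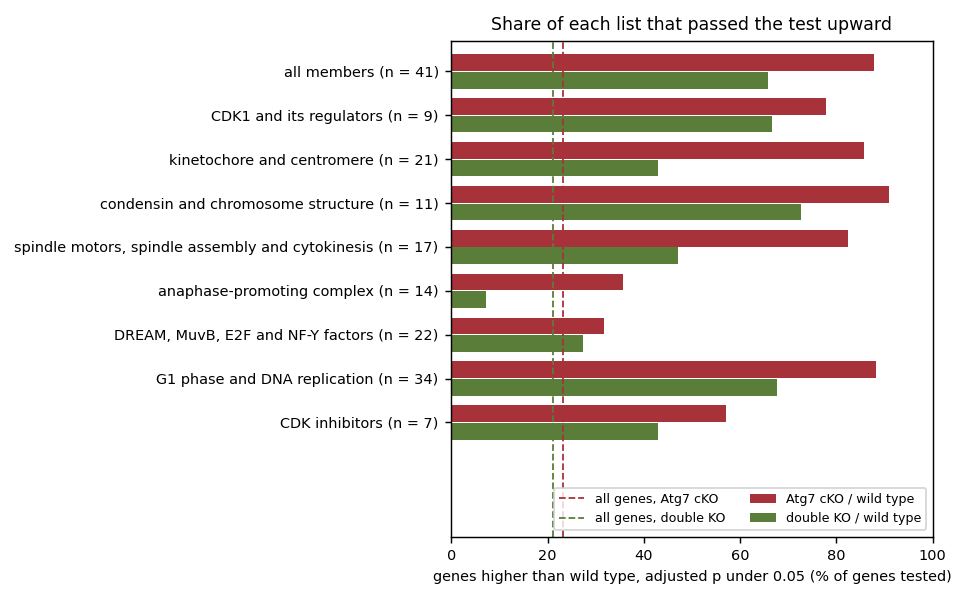
Share of genes (% of those tested, n beside each list) that were higher than wild type at a limma adjusted p under 0.05 in Atg7 cKO (red) and double KO (green), for the members and 8 other cell cycle lists; dashed lines mark the same share over all genes, 23.2% and 21.2%. The members and 6 other lists stand well to the right of the lines in both genotypes, and the anaphase-promoting complex and the DREAM, E2F and NF-Y factors stand closest to them.

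Markers of cell types moved beside these genes. Of all genes 16.2% were lower in Atg7 cKO and 15.9% in double KO, and 23.2% and 21.2% were higher. Hepatocyte markers fell, 9 of 10 in Atg7 cKO and 8 of 10 in double KO: Cps1, of the urea cycle, had mean log2 ratios of -2.12 and -1.33. Their summed processed signal was 308000 to 339000 in Atg7 cKO and 351000 to 486000 in double KO. Macrophage markers rose, 16 of 18 and 18 of 18, with sums of 233000 to 354000 in Atg7 cKO and 427000 to 457000 in double KO against 54300 to 83600 in wild type; the scavenger receptor Marco had mean log2 ratios of 3.34 and 4.43. The summed level of the 41 mitosis genes was 49800 to 82200 in Atg7 cKO and 41300 to 47000 in double KO, against 18800 to 22200 in wild type. That sum is weighted towards Pttg1, whose probe had a mean log2 signal of 11.08 where the next brightest member, Birc5, had 8. Pttg1 was called in neither genotype. Any relation between the macrophage and mitosis sums was not tested.

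For the remaining cell types the counts are to be read against the 23.2% and 21.2% of all genes that were higher. Falls are to be read against the 16.2% and 15.9% that were lower. Of 13 lymphocyte markers 4 (30.8%) rose in Atg7 cKO and 6 (46.2%) in double KO, with sums of 1740 to 2280 and 3070 to 4130 against 1240 to 1440 in wild type. Neutrophil markers rose in 2 (28.6%) and 4 (57.1%) of 7, led by S100a9 (1.33 and 3.27), with sums of 2900 to 7270 and 16100 to 29600 against 1290 to 2420. Of the 4 erythroid markers tested, 3 fell in each genotype. Cholangiocyte and progenitor markers rose in 4 of 8 in each, with sums of 22800 to 23600 and 25300 to 30600 against 3950 to 6430, carried by Spp1 (2.55 and 2.78). Of 9 stellate cell markers 5 rose in each, among them Col1a1 (2.21 and 1.96). Of 10 endothelial markers 2 (20%) rose in Atg7 cKO, a share below that of all genes, and 1 rose and 4 fell in double KO. Which cells carried the mitotic transcripts cannot be read from whole liver, and the part of these cell types in the result was not tested.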

How the data were processed

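Mouse liver RNA was compared on 16 two-colour Agilent arrays. The scanner files of experiments 1 to 6 (12 arrays) hold mean signal and median local background as intensity, made with Agilent Feature Extraction 9.5.1.1 per the file headers (9.5.1 per the submitters' processing notes); their probe coordinates are mm9. For experiments 7 and 8 the deposited value table of log10 ratios was used, converted to log2 and turned to knockout over partner.

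Intensities were corrected with normexp (offset 50) and normalised by loess within arrays, controls and flagged spots left out, in limma 3.58.1 (R 4.3.3, package data.table, version 1.17.8). Arrays of a dye swap were averaged. Probes flagged well above background in fewer than 4 of the 24 channels were dropped, and the brightest kept probe stood for its gene. One limma fit over experiments 1 to 6 (3 group means, residual df 3, prior df 2.21) gave the comparisons with wild type, their difference and the interaction; a second over all 8 experiments of the value table (residual df 4, prior df 2.14) gave the direct comparison. P-values were adjusted by Benjamini-Hochberg over 16668 genes, threshold 0.05; the fits were tested on simulated data. The labels name no animals, so p-values measure the spread between these experiments, which may in part be technical, and the number of arrays limits the precision.

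Median mean signals were 41.8 to 55.6 against backgrounds of 34.5 to 36.5. A symbol table of RefSeq named 24996 probes by accession and 5961 by symbol; 10217 kept the file's name, and no member's name changed. Every member is accounted for; genes outside the members are up to 3 per list with the largest absolute log2 ratio among those called in Atg7 cKO. The members and lists were chosen with earlier results of these data known. Some erythroid markers are not reported here.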

Additional observations from a re-analysis of the deposited data

How the results depend on the processing

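The counts of members called in Atg7 cKO (37), double KO (27) and Nrf2 KO (0) stayed within 1.5 times of these values under all alternatives but the following. A filter of 12 channels left 24 members to test and gave 22 calls in Atg7 cKO. Leaving out each experiment in turn gave 31 to 37 calls in Atg7 cKO, 11 to 33 in double KO, 0 to 8 for double KO against Atg7 cKO through wild type, 0 to 1 for the interaction and 0 to 2 on the direct arrays. Single arrays with a dye effect and experiment as a random block gave 6, 1 and 5 calls in the last 3, all lower. Of all genes 14.9%, 7.25% and 25.7% were called there in either direction, and the shares called lower were not computed. Bub1 in Atg7 cKO turned from -0.28 to 0.14 with the mean of its probes and to 0.11 with median centring, an alternative added after seeing the data, which moved the median of all genes by 0.21 in Atg7 cKO and 0.14 in double KO. Of the 37 calls in Atg7 cKO 31 held under every alternative in which the gene was tested; the filter of 12 channels kept 22 of the 37 genes, and 18 of the 27 called in double KO. An offset of 10 raised the member medians to 1.85 in Atg7 cKO and 1.15 in double KO. With the slide as a block, or with experiments 1 to 3 against 4 to 6 as a block, the calls were 36 and 39 in Atg7 cKO and 29 and 32 in double KO. The latter block pairs the experiments by set, since the labels number them 1 to 8 with none shared; it left 0 calls through wild type, with 16 members at an unadjusted p under 0.05 in place of 6. Signal over background limits the dim genes: 12 members never rose above it in wild type.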

Other observations

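Several members were read by more than 1 probe. Of the 74 member probes 53 passed the filter, and 11 genes had more than 1 of them. In 10 of the 11 all kept probes lay above 0 in Atg7 cKO, Bub1 being the exception. This is a description: the probes used for Ccnb1, Kif23, Plk4 and Top2a were never above background in wild type. They passed the filter only through knockout channels, and no share over all genes was computed. The second probes of Bub1, Cdca3, Cdca8 and Mki67 were dim as well, above background in 8, 10, 8 and 12 of the 24 channels. On the offset scale the sizes differed within some genes. The probes of Kif20a gave 2.06 and 2.32 and those of Mad2l1 1.03 and 1.05 (mean log2 ratio in Atg7 cKO). Those of Cdca3 gave 0.56 and 2.0 and those of Cdca8 0.63 and 1.55. The lower value of each pair came from a dimmer probe, whose ratio the offset pulls towards 0. On the processed signals the same probes read 1.99 and 2.66 for Cdca3 and 2.82 and 1.86 for Cdca8. For the 3 genes below the filter, a fit without it gave mean log2 ratios in Atg7 cKO of 0.16 for Anln (limma adjusted p = 0.0223), 0.24 for Hmmr (0.0656) and 0.08 for Ttk (0.202).

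Across the 41 tested members the log2 ratios of the 2 experiments of a comparison correlated with Pearson's r of 0.97 in Atg7 cKO, 0.98 in double KO, 0.57 on the direct arrays and 0.08 in Nrf2 KO, beside 0.85, 0.86, 0.67 and 0.24 over all genes; these are correlations across genes, which are not independent replicates. The median SD between experiments was 0.42 for the members and 0.09 for all genes in Atg7 cKO, 0.09 and 0.07 in double KO, and 0.72 and 0.20 on the direct arrays.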
